A study of Mus musculus with 12 samples.

Results

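The genes of mitosis and DNA replication were described in tumor cells isolated from WT and RAC1 A159V MC38 tumors of mice that received IgG or anti-PD1. The genes are 45 of the 33219 features of the count table, taken by matching Ensembl identifiers to a list of proliferation symbols in GENCODE M21. All 45 had enough counts to be among the 14340 genes tested. The set was chosen by symbol and also selected on measured values, the log2 fold changes of anti-PD1 over IgG in WT, for which 4 of its genes, Aurkb, Birc5, Cdk1 and Fbxo5, were named. That comparison is therefore given as a description, and so are the genotype values of these 4 genes, whose WT samples the choice used as well. The genotype comparisons of the other genes share these WT samples, so they are not independent of the choice either. MC38 is a mouse colon cancer line, and A159V cells carry an amino acid substitution knocked into the endogenous Rac1 gene with CRISPR-Cas9. The study worked with clone 9 unless it specified otherwise, so A159V stands for 1 edited clone and clone and mutation cannot be told apart. The cells were injected under the skin of C57BL/6 mice aged 6 to 8 weeks, which then received 100 μg of anti-PD1, or of IgG as isotype control, every 3 days from day 3. On day 13 the tumors were dissociated, tumor cells were isolated with a magnetic kit, and their polyadenylated RNA was sequenced. Each of the 4 groups held 3 mice: WT with IgG (WT IgG), WT with anti-PD1 (WT anti-PD1), A159V with IgG (A159V IgG) and A159V with anti-PD1 (A159V anti-PD1).

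Proliferating cells copy their genome in S phase and divide it in M phase. Before S phase, Cdc6 and Cdt1 load the Mcm2 to Mcm7 helicase on replication origins, and Cdc45 and the GINS complex, which includes Gins2, activate it. Ribonucleotide reductase (Rrm1 and Rrm2) and thymidylate synthase (Tyms) supply deoxynucleotides, and Pcna clamps the polymerases to DNA. Entry into mitosis is driven by Cdk1 with cyclins A and B, and Plk1 and the Aurora kinases Aurka and Aurkb act on centrosomes, spindle and chromosomes. Cdc20 activates the anaphase-promoting complex, a ubiquitin ligase that works with Ube2c, while Mad2l1, Bub1b and Fbxo5 restrain it. E2F factors drive many replication genes, and Mybl2 and Foxm1 drive many genes of G2 and M phase, whose promoters often hold a cell cycle homology region (CHR) and CCAAT boxes bound by NF-Y.

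The promoters carry these motifs in shares that differ between roles. RefSeq promoters (GRCm38.p6, 250 bases before to 50 after the start) were at hand for 36 of the 45 genes, as 37 promoters, and not for Aurkb, Ccna2, Ccne2, Cdc25c, Foxm1, Gins2, Kif20a, Mcm4 and Tpx2. A CHR (TTTGAA or TTCGAA on either strand) was found in 16 of 21 promoters of the mitosis roles (76.2%), against 3 of 14 promoters of the replication roles (21.4%) and 19.2% of all 32851 promoters. An E2F site (the letters TTTCCCG, or as variants TTTGGCG, then also TTTCGCG, and last TTTGCCG, on either strand) stood in 2 promoters of the mitosis roles (9.52%), in 6 of the replication roles (42.9%) and in 6.70% of all promoters. CCAAT boxes stood in 85.7%, 78.6% and 37.4% of these sets. No match of 1 motif overlapped a match of another in these 37 promoters. In sets of mitosis and replication genes outside the 45, the CHR stood in 71.2% and 19.6% of promoters and the E2F site in 23.1% and 39.2%. A match is a run of letters and was not tested as a binding site.

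**Figure D1:**
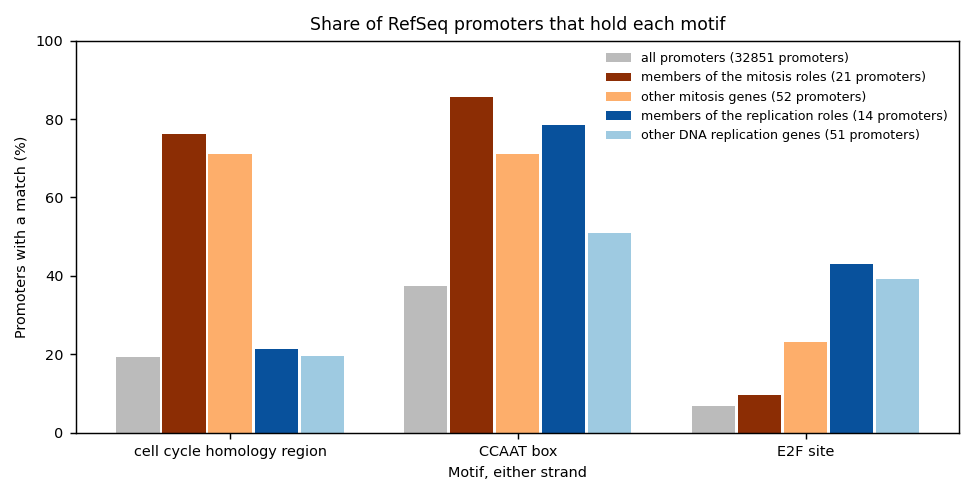
Share of RefSeq promoters (y axis, %) that hold a CHR, a CCAAT box or an E2F site, for all promoters, for the genes of the mitosis and replication roles and for other genes of mitosis and replication. The CHR stands in 76.2% of promoters of the mitosis roles and the E2F site in 42.9% of those of the replication roles, against 19.2% and 6.70% of all promoters.

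The 200 bases before the start are shown for the 3 of the 4 genes named in the choice that had an entry, for Rrm2 and Mybl2, which had the smallest p in the genotype comparison under anti-PD1 among those with an entry, and for Mcm6 and Mcm5, which had the most E2F matches in this stretch among the replication genes called there. Capitals mark the motif letters named above on either strand, so CCAAT also appears as ATTGG.
Cdk1, chr10:69352913-69353112, minus strand: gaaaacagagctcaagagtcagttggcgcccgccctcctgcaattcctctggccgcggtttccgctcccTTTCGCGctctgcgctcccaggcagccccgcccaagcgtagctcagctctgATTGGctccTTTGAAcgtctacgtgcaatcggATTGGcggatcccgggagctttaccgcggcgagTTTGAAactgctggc
Fbxo5, chr10:5805466-5805665, minus strand: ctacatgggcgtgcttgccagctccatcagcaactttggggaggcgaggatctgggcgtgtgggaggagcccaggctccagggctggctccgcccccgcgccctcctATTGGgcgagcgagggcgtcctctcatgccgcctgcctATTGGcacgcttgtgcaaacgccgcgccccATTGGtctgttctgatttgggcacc
Birc5, chr11:117849037-117849236, plus strand: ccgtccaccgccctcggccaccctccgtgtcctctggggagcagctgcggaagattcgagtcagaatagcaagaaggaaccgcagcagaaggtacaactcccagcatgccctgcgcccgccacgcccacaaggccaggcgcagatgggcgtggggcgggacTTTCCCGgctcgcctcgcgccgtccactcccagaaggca
Mcm6, chr1:128359706-128359905, minus strand: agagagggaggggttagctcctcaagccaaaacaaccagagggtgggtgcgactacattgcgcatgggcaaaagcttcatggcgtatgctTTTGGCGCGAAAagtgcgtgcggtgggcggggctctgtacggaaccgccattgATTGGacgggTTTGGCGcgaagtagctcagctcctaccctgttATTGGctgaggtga
Mcm5, chr8:75109309-75109508, plus strand: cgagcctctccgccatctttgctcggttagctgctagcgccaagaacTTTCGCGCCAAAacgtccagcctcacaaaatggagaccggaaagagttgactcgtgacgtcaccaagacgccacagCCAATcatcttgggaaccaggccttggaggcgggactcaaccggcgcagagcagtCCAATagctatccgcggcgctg
Rrm2, chr12:24708054-24708253, plus strand: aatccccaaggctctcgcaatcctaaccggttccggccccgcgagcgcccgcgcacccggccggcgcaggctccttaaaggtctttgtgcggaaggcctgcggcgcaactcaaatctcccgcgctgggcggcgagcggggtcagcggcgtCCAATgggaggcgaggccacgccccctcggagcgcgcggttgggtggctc
Mybl2, chr2:163054435-163054634, plus strand: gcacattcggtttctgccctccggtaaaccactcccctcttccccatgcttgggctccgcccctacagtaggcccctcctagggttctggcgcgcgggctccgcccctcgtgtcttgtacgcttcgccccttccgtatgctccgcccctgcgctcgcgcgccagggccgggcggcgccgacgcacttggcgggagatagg
The Cdk1 stretch holds a CHR 71 and 15 bases before the start, CCAAT boxes at 80 and 48 bases and an E2F match at 131 bases. Fbxo5 holds 3 CCAAT boxes in the stretch, and its CHR match lies in the remainder of the window. In Mcm6 and Mcm5 a pair of overlapping E2F matches on opposite strands forms a single run of capitals. Mybl2 holds none of these letters in the whole window, and sites spelled with other letters were not searched for.

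As a set, the 45 genes were expressed above most genes. Per exon length, their median level over the 12 samples was 27.4 RPKM (reads scaled for exon length and depth), against 5.73 for the genes tested, and 43 of 45 lay above that value. On this scale Rrm2 and Pcna had the highest levels (146 each), followed by Mybl2 (75.2) and Top2a (74.2), while Cenpf (3.17) and Cdc25c (4.82) had the lowest. All further levels are CPM, the counts of a gene divided by the TMM-scaled library size, which serve to compare samples for the same gene. The CPM of the 45 genes summed to 6270 to 6659 in the WT IgG samples, 5127 to 5930 in WT anti-PD1, 6973 to 8338 in A159V IgG and 7463 to 7936 in A159V anti-PD1. Thus in this sum, in which genes with high counts weigh most, the 3 WT anti-PD1 samples lay below, and the 6 A159V samples above, the 3 WT IgG samples. With each gene weighted equally (mean log2 CPM minus that of the 12 samples), A159V IgG 5 was at -0.03, within the WT IgG range of -0.1 to 0. The WT anti-PD1 samples were at -0.4 to -0.22.

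Total counts were 14053582 to 21949942 per sample, and 3 counts, the smallest amount taken as detectable, correspond to 0.144 to 0.201 CPM (counting error only). Rac1 itself was at 451 ± 55.5, 423 ± 25.6, 420 ± 65.1 and 372 ± 35.4 CPM (SD, n = 3) in WT under IgG and anti-PD1 and in A159V under IgG and anti-PD1, and counts do not show the substitution. WT IgG 1 stood apart from the other samples in its log2 CPM minus the mean of the 12 samples. This deviation fell by 0.226 per doubling of exon length, whereas the slopes of the others were between -0.085 and 0.07. In WT IgG 1 long genes such as Cenpe and Mki67 were low and short genes such as Ube2c and Birc5 were high. Not all of the 45 genes followed length. Cdk1, Cenpa and Tyms, with exon lengths of 4934, 5860 and 6089 bases (median of the 45 genes 4338), were above the mean of WT IgG 2 and 4 by 0.6, 0.58 and 0.56 (log2). A159V IgG 5 was below the mean of A159V IgG 1 and 2 for 35 of the 45 genes, by over 0.5 (log2) for 12 of them. The labels call the cells an adenocarcinoma, yet 5 epithelial markers summed to only 0.703 to 4.02 CPM and 1 of them passed the filter. The 17 leukocyte markers listed, 12 of them tested, summed to 36.6 to 40.6 CPM in WT IgG, 63.0 to 97.0 in WT anti-PD1, 47.6 to 65.1 in A159V IgG and 49.8 to 55.1 in A159V anti-PD1. Cd68 was the largest part of that sum in each group, while Ptprc, which encodes CD45 and defines leukocytes, averaged 1.31 and 10.2 CPM in WT and 0.103 and 0.129 CPM in A159V (IgG and anti-PD1), the A159V means being below the detectable amount, and Ms4a1 was at 0 in all samples. Markers of fibroblasts (6 genes) summed to 294 to 734 CPM in WT samples and 172 to 250 in A159V samples. In such bulk samples, fewer cells of a type and less RNA per cell cannot be told apart.

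**Figure D2:**
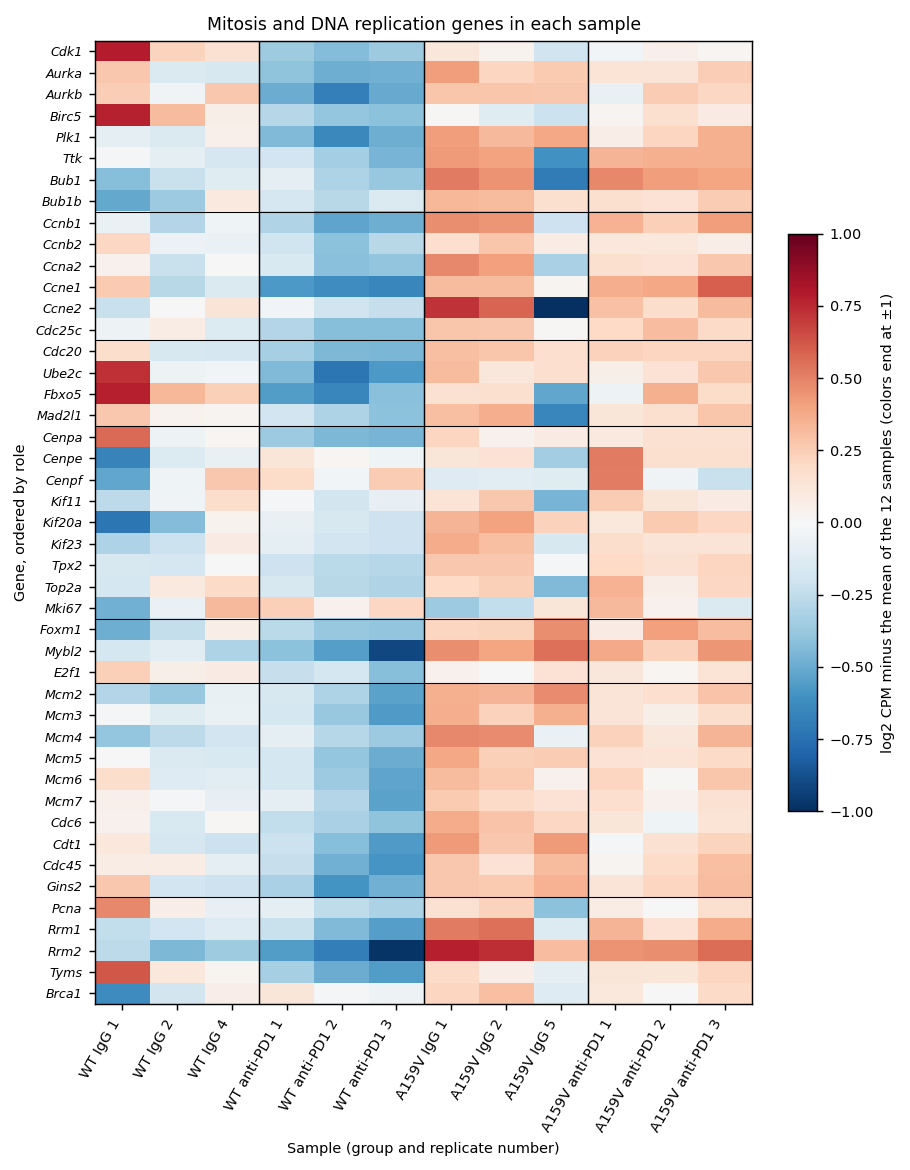
Log2 CPM of each of the 45 genes (rows, ordered by role, lines between roles) in each of the 12 samples (columns), minus the mean of the 12 samples. Red is above and blue below that mean; the WT anti-PD1 samples are mostly blue, the A159V samples mostly red, and A159V IgG 5 and WT IgG 1 differ from the other samples of their groups.

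The genotype comparisons ask how the A159V tumor cells differ from WT in these genes, under IgG and under anti-PD1. Under anti-PD1, 29 of 45 genes were higher in A159V and 0 were lower, counting as changed an adjusted p below 0.05 with an absolute log2 fold change above 0.3. Of all genes tested, 11.2% were called higher and 10.2% lower. The 3 A159V samples were all above the 3 WT samples for 42 of 45 genes and all below for 0, against 32.6% and 23.5% of all genes. The median log2 fold change was 0.51, against 0.06 over all genes. Under IgG, 12 genes were higher and 1, Birc5, was lower, against 15.6% and 12.4% of all genes, and the A159V samples were all above the WT samples for 15 genes and all below for 3, against 19.8% and 16.0% of all genes. Here the share called in total (28.9%) was near that of all genes (28.0%), and the median was 0.26 against 0.02 over all genes. Without the 4 genes named in the choice, 27 of 41 were higher under anti-PD1, with a median of 0.51, and 12 of 41 under IgG, with a median of 0.29. Leaving these genes out does not remove the link, since the reference under anti-PD1 is the same 3 WT anti-PD1 samples. Those samples lay below all 9 others for 25 of the 45 genes. Counts, medians and p values under anti-PD1 are thus not independent of the choice.

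Of the genes called higher, 10 were called in both genotype comparisons, which is 83.3% of those called under IgG and 34.5% of those called under anti-PD1. This overlap was not counted over all genes, so it cannot be read as a trait of the 45. The 10 genes are Rrm2, Rrm1, Mybl2, Foxm1, Plk1, Cdt1, Mcm2, Mcm3, Mcm4 and Mcm5. Kif20a and Bub1b were called under IgG only, and 13 genes, including Mki67, Pcna and Brca1, were called in neither. The 6 A159V samples were above all 6 WT samples for 10 genes (22.2% of the 45, against 10.3% of all genes), namely Plk1, Bub1b, Kif20a, Foxm1, Mybl2, Mcm2, Mcm3, Mcm4, Mcm5 and Rrm2. The count under anti-PD1 depended on single samples: it was 11 without WT anti-PD1 3, 14 without WT anti-PD1 2 and 13 without A159V anti-PD1 3, with none lower in any of these. The calls among all genes fell with it, from 21.4% to 10.4%, 13.6% and 11.3%, while the median of the 45 genes was 0.44, 0.49 and 0.47. Under IgG, 3 were higher and 2 lower without WT IgG 2, 5 and 1 without A159V IgG 1, and 7 and 0 without A159V IgG 2, where 19.9%, 18.2% and 17.5% of all genes were called. With WT IgG 1 and A159V IgG 5 both left out, the counts were 21 higher and 2 lower under IgG and 36 and 0 under anti-PD1, with 36.7% and 37.9% of all genes called.

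Scaling moved the split under IgG. RLE size factors gave 8 genes higher and 3 lower, and upper-quartile normalization gave 5 and 3 (26.0% and 25.5% of all genes called), while the median over all genes moved from 0.02 to -0.06 and -0.12. Relative to that median, the 45 genes stood 0.25, 0.24 and 0.24 higher with TMM, RLE and upper-quartile scaling. Under anti-PD1 the counts were 23 and 21 higher and 0 lower with these scalings (19.5% and 19.0% of all genes called), and the genes stood 0.44 above all genes with each of the 3. Under IgG the calls of Cdt1 and Mcm5 were lost with both other scalings and those of Foxm1, Plk1 and Bub1b with upper-quartile normalization. With only the 2 IgG groups in the fit, 1 gene, Rrm2, was called under IgG, against 10.3% of all genes. WT anti-PD1 samples also had a higher summed level of leukocyte and of fibroblast markers than A159V anti-PD1 samples. Of 12 leukocyte markers, 6 (Ptprc, Cd3g, Cd8a, Nkg7, Gzmb and Itgam) were called lower in A159V and 0 higher, against 10.2% and 11.2% of all genes. The log2 fold changes of 5 leukocyte markers were positive, up to 0.86. Of 6 fibroblast markers, 4 were called lower and 1 higher. The part of these cells in the differences was not tested.

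**Figure D3:**
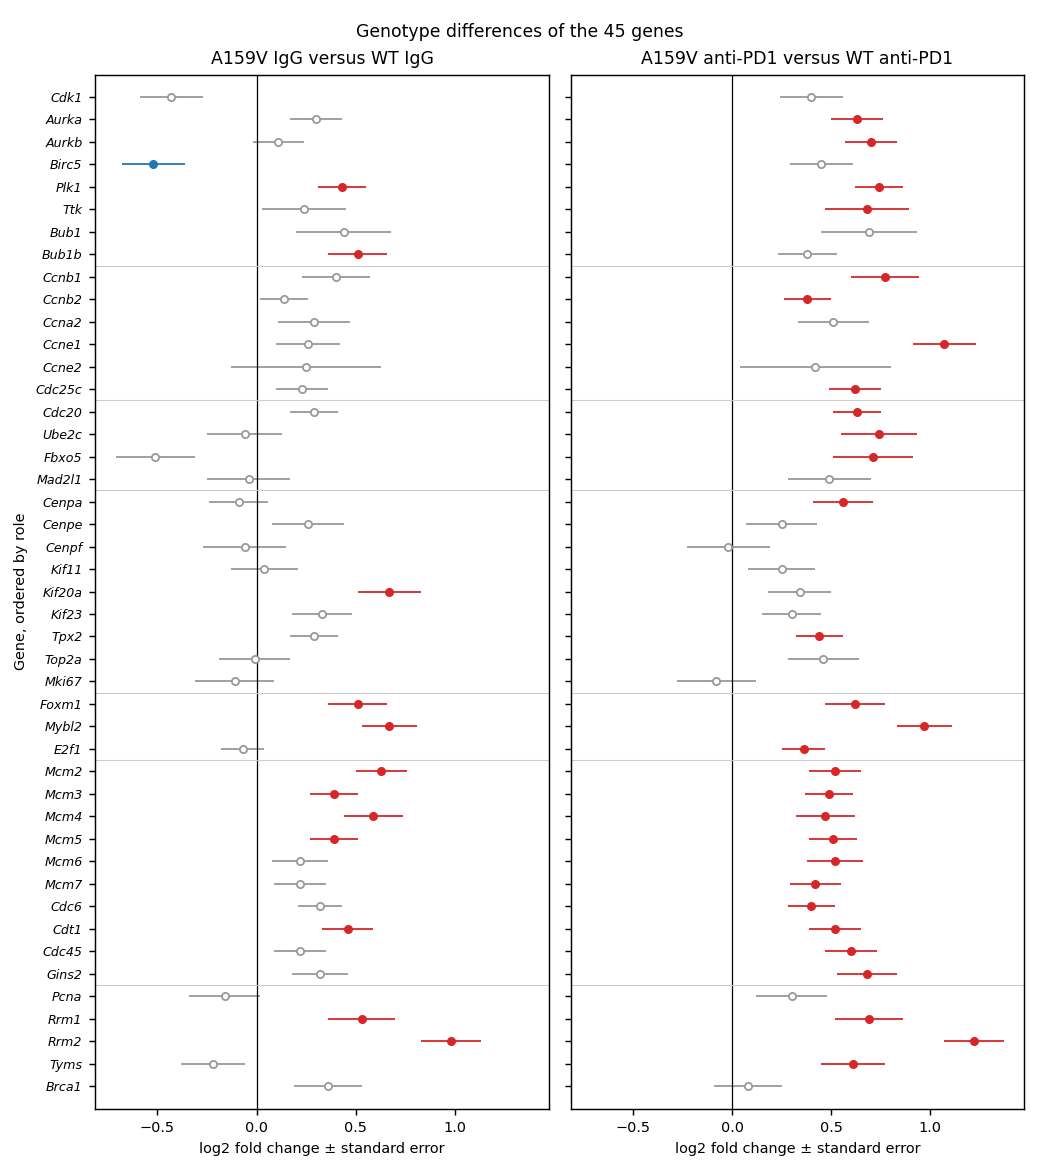
Log2 fold change of A159V over WT (x axis, ± standard error) of each of the 45 genes (y axis, ordered by role) under IgG and under anti-PD1. Filled red points were called higher, filled blue points lower and open gray points were not called; 12 genes were called higher and 1 lower under IgG, and 29 higher and 0 lower under anti-PD1.

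Of the 15 genes of DNA replication, 13 were called higher in A159V under anti-PD1 and 7 under IgG. These shares were 86.7% and 46.7%, against 21.4% and 28.0% of all genes called in either direction (11.2% and 15.6% called higher). All 10 genes of origin licensing and the helicase were called higher under anti-PD1, with log2 fold changes of 0.40 to 0.68, and 5 of them (50%) were called under IgG. In the values that follow, samples are in the order of replicates 1, 2 and 4 for WT IgG, 1, 2 and 5 for A159V IgG and 1, 2 and 3 for both anti-PD1 groups. Mcm2 was at 186, 175 and 216 CPM in WT IgG, 204, 184 and 157 in WT anti-PD1, 292, 288 and 316 in A159V IgG and 250, 256 and 278 in A159V anti-PD1. In WT, Mcm4 had 124, 135 and 141 CPM under IgG and 152, 132 and 126 under anti-PD1, and in A159V it had 225, 224 and 154 and 190, 174 and 205. The A159V samples of both genes were all above the WT samples, and A159V IgG 5 was the lowest of the A159V samples for Mcm4. The log2 fold changes under IgG were 0.63 ± 0.13 for Mcm2 (SE, adjusted p = 0.00418) and 0.59 ± 0.15 for Mcm4 (adjusted p = 0.0137). The WT IgG samples held 278, 252 and 251 CPM of Mcm5 and the WT anti-PD1 samples 247, 212 and 197, against 364, 329 and 333 in A159V IgG and 309, 306 and 318 in A159V anti-PD1. Its 6 A159V samples too lay above its 6 WT samples, with log2 fold changes of 0.39 ± 0.12 under IgG (adjusted p = 0.0278) and 0.51 ± 0.12 under anti-PD1 (adjusted p = 0.01). Mcm3 was called in both comparisons as well (0.39 and 0.49), whereas Mcm6, Mcm7 and Cdc6 were called under anti-PD1 (0.52, 0.42 and 0.40) and had 0.22, 0.22 and 0.32 under IgG, with adjusted p of 0.254, 0.22 and 0.0518.

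Cdt1, the loading factor that is degraded once S phase begins, was called in both comparisons. For Cdt1 the values were 197, 163 and 158 CPM in WT IgG, 158, 136 and 124 in WT anti-PD1, 245, 221 and 246 in A159V IgG and 180, 204 and 214 in A159V anti-PD1. A159V IgG samples were the highest group and WT anti-PD1 the lowest, and the log2 fold changes were 0.46 ± 0.13 under IgG (adjusted p = 0.0232) and 0.52 ± 0.13 under anti-PD1 (adjusted p = 0.0164). Cdc45 and Gins2, partners of the active helicase, were called under anti-PD1. Cdc45 was at 58.2, 58.5 and 51.8 CPM in WT IgG, 47.3, 39.8 and 36.9 in WT anti-PD1, 66.8, 61.2 and 68.9 in A159V IgG and 56.6, 63.1 and 68.5 in A159V anti-PD1. The WT IgG samples held 44.7, 32.5 and 32.1 CPM of Gins2 and the WT anti-PD1 samples 29.6, 24.5 and 26.5, against 44.7, 44.4 and 47.1 in A159V IgG and 40.6, 42.9 and 46.0 in A159V anti-PD1. For both genes the 3 WT anti-PD1 samples lay below the other 9. Under anti-PD1 the log2 fold changes were 0.60 ± 0.13 for Cdc45 (adjusted p = 0.00603) and 0.68 ± 0.15 for Gins2 (adjusted p = 0.00557).

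Among genes of the fork and nucleotide supply, Rrm2, the regulated subunit of ribonucleotide reductase, had the largest genotype difference of the 45 genes in both comparisons. In WT, Rrm2 had 312, 273 and 293 CPM under IgG and 254, 232 and 190 under anti-PD1, and in A159V it had 640, 623 and 463 and 512, 515 and 551. The A159V samples were all above the WT samples, and A159V IgG 5 was the lowest of them. Rrm2 was 1.97-fold higher under IgG, with a log2 fold change of 0.98 ± 0.15 (adjusted p = 0.000894), and 2.34-fold higher under anti-PD1, with 1.22 ± 0.15 (adjusted p = 0.000238). The call held under each of the alternative settings tried and with each sample left out. Rrm1, the large subunit, was called in both comparisons (0.53 and 0.69) although its groups overlapped under IgG, and Tyms was called under anti-PD1 (0.61). For Pcna the values were 481, 361 and 325 CPM in WT IgG, 322, 289 and 277 in WT anti-PD1, 383, 405 and 259 in A159V IgG and 362, 343 and 386 in A159V anti-PD1. The WT IgG and A159V IgG samples of Pcna overlapped, and its log2 fold changes of -0.16 ± 0.18 under IgG and 0.30 ± 0.18 under anti-PD1 did not pass the test (adjusted p = 0.55 and 0.265). Brca1, a repair factor, had 0.36 under IgG and 0.08 under anti-PD1 and was not called.

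All 3 transcription factors were called higher under anti-PD1, against 21.4% of all genes called in either direction (11.2% called higher). Mybl2 and Foxm1 were called under IgG too, which is 66.7% of the 3, against 28.0% of all genes called in either direction (15.6% called higher). Mybl2 was at 294, 308 and 267 CPM in WT IgG, 249, 226 and 177 in WT anti-PD1, 458, 437 and 487 in A159V IgG and 432, 391 and 451 in A159V anti-PD1. In WT, Foxm1 had 70.2, 83.2 and 103 CPM under IgG and 81.6, 75.6 and 74.6 under anti-PD1, and in A159V it had 114, 114 and 136 and 104, 131 and 122. The A159V samples of both were all above the WT samples. Mybl2 had log2 fold changes of 0.67 ± 0.14 under IgG (adjusted p = 0.00458) and 0.97 ± 0.14 under anti-PD1 (adjusted p = 0.000588), and Foxm1 of 0.51 ± 0.15 (adjusted p = 0.0252) and 0.62 ± 0.15 (adjusted p = 0.0115). E2f1, an activator of S phase genes, had -0.07 ± 0.11 under IgG (adjusted p = 0.687) and 0.36 ± 0.11 under anti-PD1 (adjusted p = 0.0385).

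**Figure D4:**
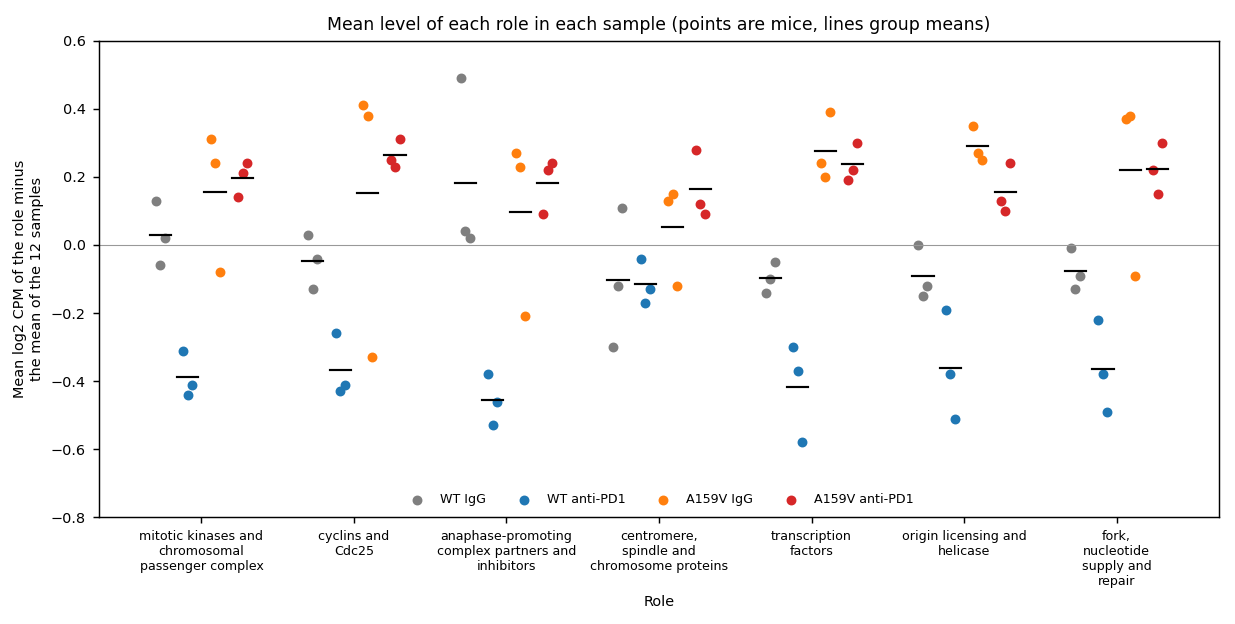
Mean log2 CPM of the genes of each role minus the mean of the 12 samples (y axis) for each sample (points) of the 4 groups, with lines at the group means. For transcription factors and for origin licensing the A159V samples all lie above the WT samples, and for the anaphase-promoting complex the WT anti-PD1 samples lie between -0.53 and -0.38, below the other 9.

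Mitotic kinases were less uniform. Under anti-PD1, Plk1, Aurka and Ttk were called higher in A159V, while under IgG Plk1 and Bub1b were called higher. Aurkb (higher under anti-PD1) and Birc5 (lower under IgG) also passed the limits, which is a description because they were named in the choice. With these genes, 50% of the 8 were called under anti-PD1 and 37.5% under IgG, against 21.4% and 28.0% of all genes. The WT IgG samples held 94.8, 91.0 and 104 CPM of Plk1 and the WT anti-PD1 samples 74.0, 64.3 and 71.7, against 134, 126 and 131 in A159V IgG and 105, 117 and 129 in A159V anti-PD1. The 6 A159V samples were above the 6 WT samples, and the log2 fold changes were 0.43 ± 0.12 under IgG (adjusted p = 0.0167) and 0.74 ± 0.12 under anti-PD1 (adjusted p = 0.00101). For Aurka the values were 120, 90.2 and 89.5 CPM in WT IgG, 75.4, 71.2 and 71.3 in WT anti-PD1, 133, 116 and 119 in A159V IgG and 110, 109 and 118 in A159V anti-PD1. Aurkb was at 112, 92.0 and 114 CPM in WT IgG, 66.6, 58.7 and 66.2 in WT anti-PD1, 114, 114 and 114 in A159V IgG and 89.4, 112 and 108 in A159V anti-PD1. For both Aurora kinases the WT anti-PD1 samples lay below the other 9, and under IgG neither was called (0.30 and 0.11). Under anti-PD1 Aurka had 0.63 ± 0.13 (adjusted p = 0.00505) and Aurkb, the kinase of the chromosomal passenger complex, had 0.70 ± 0.13, a value without a test because its low WT anti-PD1 level was part of the choice. In WT, Bub1b had 76.2, 84.3 and 116 CPM under IgG and 96.5, 89.7 and 98.2 under anti-PD1, and in A159V it had 137, 135 and 121 and 121, 120 and 129. Bub1b, a spindle checkpoint kinase homolog, was higher under IgG by 0.51 ± 0.15 (adjusted p = 0.0223), and under anti-PD1 its value was 0.38 ± 0.15 (adjusted p = 0.0811).

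Birc5 (survivin), which targets Aurkb to centromeres, was the gene called lower in A159V under IgG. The WT IgG samples held 151, 110 and 92.5 CPM of Birc5 and the WT anti-PD1 samples 72.7, 68.1 and 66.7, against 89.7, 81.4 and 76.6 in A159V IgG and 90.4, 99.1 and 94.2 in A159V anti-PD1. WT IgG 1, the sample with the trend in exon length, had the highest value, and the A159V IgG samples lay below the 3 WT IgG samples. The log2 fold change was -0.52 ± 0.16 under IgG and 0.45 ± 0.16 under anti-PD1. Birc5 and Cdk1 were named because their WT IgG values exceeded their WT anti-PD1 values, which favors a lower value of A159V under IgG and a higher one under anti-PD1, so no test is given for them. Without WT IgG 1 the log2 fold change of Birc5 under IgG was -0.36, and without A159V IgG 2 it was -0.50 and the call was lost. For Cdk1 the values were 227, 154 and 146 CPM in WT IgG, 103, 97.6 and 102 in WT anti-PD1, 143, 136 and 115 in A159V IgG and 130, 137 and 134 in A159V anti-PD1. Cdk1 followed a like order, with 227 CPM in WT IgG 1, and log2 fold changes of -0.43 ± 0.16 under IgG and 0.40 ± 0.16 under anti-PD1. Ttk and Bub1 had 22.2 and 62.0 CPM in A159V IgG 5, below every other sample, against 24.4 to 45.5 and 75.1 to 144 in the rest.

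**Figure D5:**
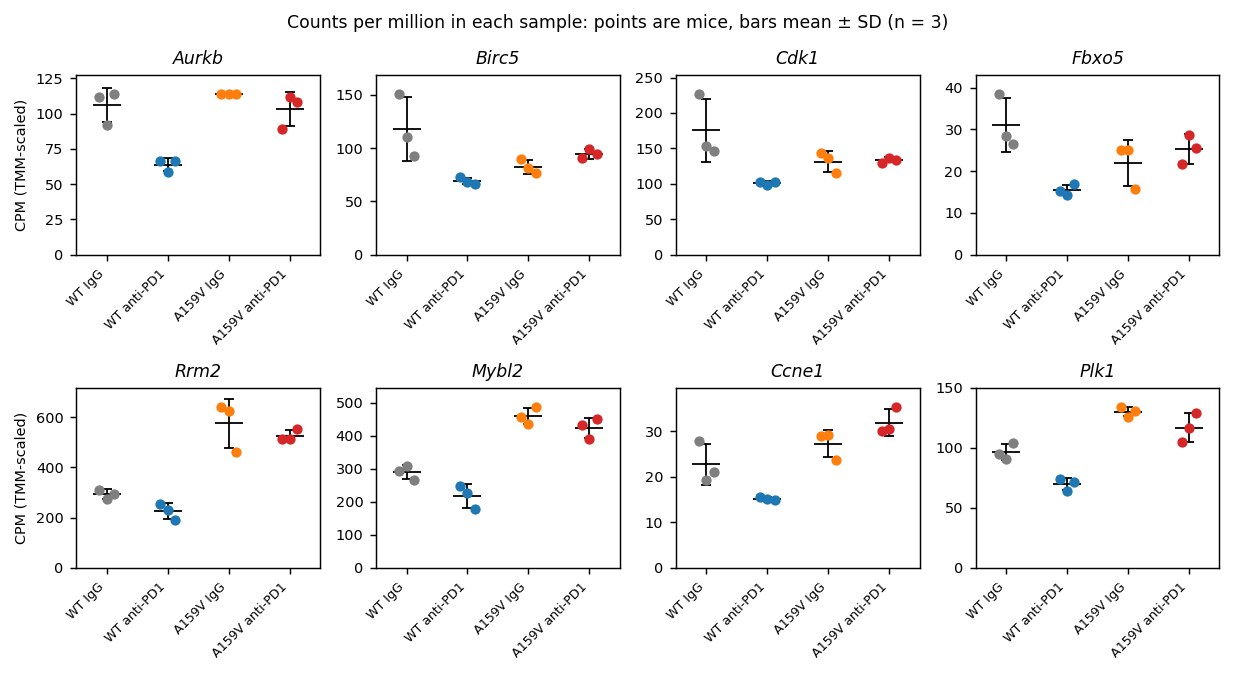
CPM (TMM-scaled, y axis from 0) of 8 genes in each mouse (points) of the 4 groups, with group mean ± SD (n = 3). For Aurkb, Birc5, Cdk1, Ccne1, Plk1, Rrm2 and Mybl2 the 3 WT anti-PD1 samples are below all others. Aurkb, Birc5, Cdk1 and Fbxo5 were named in the choice from their WT samples. For Rrm2, Mybl2 and Plk1 the 6 A159V samples are above the 6 WT samples.

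Cyclins and Cdc25c were not called under IgG (0%, against 28.0% of all genes). The A159V IgG samples differed here. The mean log2 CPM of the role minus that of the 12 samples was 0.41 and 0.38 in A159V IgG 1 and 2 and -0.33 in A159V IgG 5. In WT IgG it was -0.13 to 0.03. Under anti-PD1, 4 of 6 were called higher in A159V (66.7%, against 21.4% of all genes called in either direction and 11.2% called higher). Ccne1 was at 27.9, 19.2 and 21.1 CPM in WT IgG, 15.6, 15.1 and 14.8 in WT anti-PD1, 29.0, 29.1 and 23.8 in A159V IgG and 30.0, 30.4 and 35.3 in A159V anti-PD1. Cyclin E1, which with Cdk2 starts S phase, was 2.10-fold higher in A159V under anti-PD1, with a log2 fold change of 1.07 ± 0.16 (adjusted p = 0.000622), and the 3 WT anti-PD1 samples lay below the other 9. In WT, Ccne2 had 23.2, 27.2 and 29.7 CPM under IgG and 26.6, 23.6 and 23.2 under anti-PD1, and in A159V it had 44.9, 40.7 and 9.3 and 33.3, 30.8 and 33.9. For its paralog Ccne2 the value of 9.3 CPM in A159V IgG 5 was the lowest and the other A159V samples were above all WT samples. Ccne2 was not called (0.25 ± 0.38 under IgG, adjusted p = 0.658, and 0.42 ± 0.38 under anti-PD1, adjusted p = 0.469). For Cdc25c the values were 22.5, 24.5 and 21.3 CPM in WT IgG, 19.0, 17.4 and 17.3 in WT anti-PD1, 28.4, 28.2 and 23.5 in A159V IgG and 26.8, 28.9 and 26.7 in A159V anti-PD1. Cdc25c, a phosphatase that activates Cdk1, was higher under anti-PD1 by 0.62 ± 0.13 (adjusted p = 0.00473). Ccnb1 (0.77) and Ccnb2 (0.38) were called there too, and Ccna2 (0.51) was not.

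Among the 4 partners of the anaphase-promoting complex, Cdc20 and Ube2c were called under anti-PD1, and under IgG 0 of 4 were called. Fbxo5 also passed the limits under anti-PD1, which is a description because it was named in the choice. With Fbxo5 the share called under anti-PD1 was 75%, against 21.4% of all genes. In WT, Cdc20 had 131, 104 and 103 CPM under IgG and 92.0, 84.8 and 84.6 under anti-PD1, and in A159V it had 143, 141 and 130 and 136, 135 and 134. Fbxo5 was at 38.5, 28.3 and 26.5 CPM in WT IgG, 15.2, 14.3 and 16.8 in WT anti-PD1, 25.0, 25.1 and 15.6 in A159V IgG and 21.6, 28.7 and 25.6 in A159V anti-PD1. The WT anti-PD1 samples of Cdc20 lay below all others, and those of Fbxo5 below all except A159V IgG 5. Under anti-PD1 Cdc20 had a log2 fold change of 0.63 ± 0.12 (adjusted p = 0.00277) and Ube2c of 0.74 ± 0.19 (adjusted p = 0.0148). Fbxo5, an inhibitor of the complex, had 0.71 ± 0.20 under anti-PD1 and -0.51 ± 0.20 under IgG, with no test since it was named from the WT samples. Mad2l1, a spindle checkpoint protein, had 0.49 under anti-PD1 and was not called.

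Centromere, spindle and chromosome proteins had the lowest share of calls of all roles under anti-PD1. There 2 of 9 were called higher (Cenpa, the centromeric histone, 0.56, and Tpx2, a spindle factor that activates Aurka, 0.44), and under IgG 1 of 9, the kinesin Kif20a. The first share, 22.2%, was near the 21.4% of all genes called in either direction, but above the 11.2% called higher. The second, 11.1%, was below both the 28.0% of all genes called in either direction and the 15.6% called higher. The WT IgG samples held 41.9, 51.1 and 70.9 CPM of Kif20a and the WT anti-PD1 samples 65.5, 61.7 and 59.8, against 87.5, 91.4 and 81.1 in A159V IgG and 74.0, 82.9 and 79.7 in A159V anti-PD1. All A159V samples of Kif20a lay above all WT samples, with log2 fold changes of 0.67 ± 0.16 under IgG (adjusted p = 0.0102) and 0.34 ± 0.16 under anti-PD1 (adjusted p = 0.153). For Mki67 the values were 286, 379 and 500 CPM in WT IgG, 470, 409 and 460 in WT anti-PD1, 309, 336 and 433 in A159V IgG and 500, 411 and 360 in A159V anti-PD1. Mki67, the gene of the Ki-67 proliferation antigen, overlapped between the genotypes under both treatments, with log2 fold changes of -0.11 ± 0.20 (adjusted p = 0.704) and -0.08 ± 0.20 (adjusted p = 0.818). Top2a (-0.01 and 0.46), Cenpe (0.26 and 0.25), Cenpf (-0.06 and -0.02), Kif11 (0.04 and 0.25) and Kif23 (0.33 and 0.30) were called in neither comparison. WT IgG 1 was the lowest of the WT IgG samples for Cenpe, Cenpf, Mki67 and Top2a.

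Anti-PD1 in A159V was compared with IgG, a contrast that the choice of genes did not use. None of the 45 genes was called by edgeR, and 0 had an unadjusted p under 0.05, against 0% of all genes called and 3.63% under that p. With DESeq2 the count of calls was also 0, and 1 gene had an unadjusted p under 0.05. The log2 fold changes ran from -0.25 (Cdt1) to 0.30 (Cenpe), with a median of -0.04 against 0 over all genes. The groups did not overlap for 9 of 45 genes, against 11.0% of all genes, with 3 all higher and 6 all lower, against 4.51% and 6.50%. Rrm2 had -0.13 ± 0.15 and Mki67 0.24 ± 0.20, which the error does not set apart from 0. All 10 origin licensing genes had values below 0, from -0.25 to -0.04, with none past the test.

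Anti-PD1 in WT was the comparison from which genes were named, so its values are a description. In it 4 genes were called lower, which is 8.89% of the 45, beside 0.628% of all genes called, 0.132% called lower and 0.495% called higher. Aurkb went from 106 ± 11.9 to 63.8 ± 4.46 CPM (log2 fold change -0.73), Cdk1 from 176 ± 44.7 to 101 ± 3.06 (-0.80), Fbxo5 from 31.1 ± 6.46 to 15.4 ± 1.28 (-1.01) and Birc5 from 118 ± 30.1 to 69.2 ± 3.15 (-0.77; SD, n = 3). Their adjusted values lay just inside the threshold, between 0.0307 and 0.0492, and just outside were Tyms (-0.74), Ube2c (-0.84), Cenpa (-0.63) and Plk1 (-0.47), between 0.0544 and 0.0689. The median over the 45 genes was -0.31, against 0.01 over all genes, and the 3 WT anti-PD1 samples were all below the 3 WT IgG samples for 29 genes, beside 15.8% of all genes. In 1 gene, Cenpe, they were all above (18.8% of all genes), at 193, 180 and 172 against 112, 161 and 169 CPM. WT IgG 1 had the highest value of the 12 samples for Cdk1, Birc5, Fbxo5, Ube2c, Cenpa and Tyms. Without that sample 0 of the 45 genes and 0.00684% of all genes were called, the median of the 45 genes was -0.26, and Aurkb, Cdk1, Fbxo5 and Birc5 had -0.69, -0.58, -0.83 and -0.56. Without WT IgG 4 there were 16 lower and 1 higher, with 23.6% of all genes called, and DESeq2 called 15 lower, with 10.3% of all genes called. Of the 12 leukocyte markers tested, 11 had values above 0 in the same comparison and 1 below (-1.16). The rise of leukocyte markers was called for Cd8a (4.53), Cd3g (3.84), Nkg7 (2.58) and Itgam (2.44, all log2), and its part in these values was not tested.

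The difference between the 2 responses to anti-PD1, an interaction, contains the WT comparison and is likewise a description. By edgeR 0 of the 45 genes were called, and 10 had an unadjusted p under 0.05, beside 0.00697% of all genes called and 17.6% under that p. DESeq2 called 5 of them and 2.06% of all genes. The values ran from -0.33 to 1.22 with a median of 0.25. The genotype fold change was larger under anti-PD1 than under IgG for 38 of 45 genes, which is the same quantity. The 3 WT anti-PD1 samples, on whose values genes were named, lay below all 9 other samples for 25 genes (55.6% of the 45), beside 6.44% of all genes.

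Other genes of the cell cycle, in lists that do not contain the 45, were counted with the same test. Of 55 other mitosis genes, 20 were higher in A159V under anti-PD1 and 0 lower, with a median of 0.47, and under IgG 8 were higher and 3 lower, with a median of 0.13. The share called was 36.4% under anti-PD1, against 21.4% of all genes, and 20% under IgG, below the 28.0% of all genes. Under anti-PD1 the smallest p values belonged to Cdca2 (0.77), Ncaph, a condensin subunit (0.68), and Kif2c (0.61), and the 3 lower under IgG were Cks2 (-1.07), Spc24 (-0.67) and Cenpm (-0.64). Of 54 other replication genes, 24 were higher and 0 lower under anti-PD1, with a median of 0.47, and 12 and 2 under IgG, with a median of 0.11, which are shares of 44.4% and 25.9%, the latter near that of all genes. Mcm10 was called in both (0.67 under IgG and 0.80 under anti-PD1), and Exo1 (0.77) and Rfc5, a clamp loader subunit (0.72), under anti-PD1. Tk1 (-0.52) and Prim1 (-0.56) were the replication genes lower under IgG.

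Upstream regulators did not move as 1 group. Of 24 genes of G1 cyclins, their kinases, the Rb family and E2F, 5 were higher and 0 lower under IgG, with Ccnd3 (0.81), Ccnd2 (1.06) and Cdc25a (0.48) first, and 5 higher and 1 lower under anti-PD1, where Rb1, the brake on E2F, was the lower gene (-0.86). These shares, 20.8% and 25.0%, were near the 28.0% and 21.4% of all genes. Of 19 cell cycle inhibitors, 2 were higher and 6 lower under IgG, and 5 and 5 under anti-PD1, which are 42.1% and 52.6% of the list. Cdkn2b, an inhibitor of Cdk4 and Cdk6, was lower in A159V in both comparisons (log2 fold change -2.04 under IgG and -1.66 under anti-PD1). Btg1 (-1.21 and -1.10) and Btg2 (-1.40 and -2.68), which are antiproliferative genes, were lower under IgG and under anti-PD1, and Trp53inp1, a p53 target, was lower under anti-PD1 (-2.09). Higher were Chek2 in both comparisons (0.52 and 0.56), Ccng1 under IgG (0.69) and Cdkn2d (0.69) and Pkmyt1, a kinase that restrains Cdk1 (0.49), under anti-PD1.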

How the data were processed

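According to the methods, STAR was used for alignment of the paired 100 bp reads to mm10, Samtools for file conversion and summarizeOverlaps for counting. The authors deposited the resulting raw gene counts, not normalized, in a single table and ran DESeq2 on them. How reads over several genes or on either strand were counted is not given in the sources used here, so values of genes with pseudogene copies, such as Pcna, or with neighbors that overlap them are uncertain. Symbols, positions and exon lengths were taken from GENCODE M21, and 32064 of 33217 Ensembl features had a symbol. The 2 remaining features, reporters, had 0 counts.

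Counts were filtered with filterByExpr, scaled by TMM and fitted in edgeR 4.0.16 (R 4.3.3) with a quasi-likelihood model of the 4 groups over all 12 samples (8 residual degrees of freedom), with Benjamini-Hochberg adjustment of p over 14340 genes. Calls needed an adjusted p below 0.05 and an absolute log2 fold change above 0.3. Total counts ranged from 14053582 to 21949942, and log2 CPM used a prior count of 2. Alternatives were other scalings and filters, DESeq2 1.42.0, voom in limma 3.58.1, the 2 groups alone, the replicate number as a block, thinning and leaving out samples, and, added after the data were seen, removal of the trend with exon length and the joint loss of WT IgG 1 and A159V IgG 5. The genes, lists and tests were chosen with earlier results of these data known. Values in every sample are printed for the 4 genes named in the choice, for up to 10 genes per direction with the smallest p among the calls of each genotype comparison, and for Mki67, Pcna, Ccne1 and Ccne2, and from each other list up to 3 calls per direction. Groups come from the sample labels, and each sample is a separate mouse. Figures were drawn with matplotlib 3.10.9.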

Additional observations from a re-analysis of the deposited data

How the results depend on the processing

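The median log2 fold change of the 45 genes kept its sign in the genotype comparisons and in WT under every alternative, and the absence of calls for anti-PD1 in A159V held throughout. Counts moved more. For the genotypes under IgG, 13 genes (28.9%) were called, against 28.0% of all genes. With upper-quartile normalization 8 were called (17.8%, against 25.5% of all genes). No filter on low counts gave 7 (15.6%, against 15.5%), and at least 10 counts in every sample gave 8 (17.8%, against 22.9%). With only the 2 groups compared the count was 1 (2.22%, against 10.3%). It was 23 with WT IgG 1 and A159V IgG 5 left out (51.1%, against 36.7%). Among these fits, the share of the 45 was near or below that of all genes except in the last. It was also above with the trend with exon length removed (35.6%, against 28.3%), the replicate block (48.9%, against 40.9%) and DESeq2 (33.3%, against 30.2%). With RLE size factors (24.4%, against 26.0%) and thinning (22.2%, against 24.7%) it was below. The median under IgG was 0.26, against 0.12 with upper-quartile normalization and 0.14 with at least 10 counts. In WT, 4 genes were called in the main fit. No filter on low counts gave 7 and at least 10 counts in every sample gave 1. Only the 2 groups compared gave 0, leaving out both samples gave 8, and DESeq2 gave 15. Of all genes, 0.628% were called in WT in the main fit, 3.25%, 0.206%, 0% and 3.07% in these settings and 10.3% with DESeq2. For the interaction, with 0 calls, DESeq2 gave 5 and leaving out both samples 3, each beside 2.06% of all genes. With the trend with exon length removed, 14 genes were higher and 2 lower in A159V under IgG, and 26 and 0 under anti-PD1. In WT 6 were lower with anti-PD1 in that fit. Of all genes, 28.3%, 23.3% and 1.27% were called in these comparisons. Under anti-PD1 the genotype count of 29 ranged from 21 with upper-quartile normalization (19.0% of all genes called) to 39 with the replicate block (35.0%). With single samples left out, the counts ranged from 5 to 16 (IgG), from 11 to 34 (anti-PD1), from 0 to 17 (WT) and from 0 to 6 (interaction). Over those fits the calls among all genes ranged from 17.5% to 32.0%, 10.4% to 28.3%, 0.00684% to 23.6% and 0% to 8.07%. The causes of these shifts were not tested, and the fits that leave samples out also hold fewer samples.

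The replicate numbers belong to different mice. Over 13 pairs of samples from different groups with the same number, samples correlated in their deviations from the group means by -0.178 to 0.205, with 3 above 0.1, and 0 of 3 A159V anti-PD1 samples correlated best with the WT anti-PD1 sample of their own number. With the replicate number as a block the counts were 22 under IgG, 39 under anti-PD1, 20 in WT and 8 for the interaction, while 40.9%, 35.0%, 32.4% and 19.2% of all genes were called. The shares of the 45 were 48.9%, 86.7%, 44.4% and 17.8%, the last below that of all genes. Over all genes tested, the calls for the genotypes changed from 4010 to 1399 under IgG and from 3075 to 5320 under anti-PD1 with only the groups compared, and in WT from 90 to 0. With DESeq2 they were 1478 in WT and 295 for the interaction (1 with edgeR). Counts in the other lists ranged, under IgG and anti-PD1, from 1 to 30 and 12 to 41 (mitosis), from 1 to 20 and 16 to 40 (replication), from 2 to 11 and 3 to 11 (G1) and from 5 to 9 and 7 to 15 (inhibitors). Over the settings of these ranges, 10.3% to 40.9% of all genes were called under IgG and 12.2% to 38.5% under anti-PD1. With 3 mice in a group, small changes were not detectable.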

Other observations

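The 45 genes split by exon length within WT IgG 1: the 23 genes at or below the median exon length of 4338 bases averaged 0.10 above the mean of the 12 samples (log2 CPM), and the 22 longer genes averaged 0.11 below it. In the WT anti-PD1 samples both sets were below that mean, by values of -0.46 to -0.29 for the shorter and -0.34 to -0.15 for the longer genes.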
